A study of Mus musculus with 6 samples.

Results

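The cytosolic ribosomal protein genes were examined for the promoter mark H3K4me3 and for binding of the transcription factor MafA in MIN6 cells. They were chosen by symbol, as protein-coding genes named Rpl or Rps plus a number, with the stalk genes Rplp0, Rplp1 and Rplp2 and with Rpsa. The rule found 84 of the 21900 protein-coding genes of the RefSeq table. Of these, 43 encode canonical proteins of the large subunit, 30 of the small subunit and 3 of the stalk, and 8 are copies or relatives (Rpl3l, Rpl10l, Rpl32l, Rpl36al, Rpl37rt, Rpl39l, Rps27l and Rps27rt). The members lay on 19 chromosomes.

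MIN6 is a mouse insulin-secreting line with features of pancreatic beta cells. CUT&RUN was used, in which an antibody guides a nuclease to its target on chromatin in permeabilised cells and the released fragments are sequenced. There were 6 libraries in 3 groups of 2 replicates, each from 500000 cells permeabilised with 0.01% digitonin and read as 150 bp pairs: an antibody to the cells' own MafA, an antibody to H3K4me3 to control for success of the assay, and IgG for background. The labels give no treatment or genotype that differs between groups, and the IgG libraries were not analysed here. The labels do not say that replicates were separate cultures, so the spread between them may be technical.

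Ribosomal protein genes are transcribed at a high rate in most growing cells, and their products must be made in matched amounts to build the small and large ribosomal subunits. Their messages usually begin with a C and a run of pyrimidines, the 5′ terminal oligopyrimidine tract, through which mTOR and Larp1 control their translation. H3K4me3 is laid down on nucleosomes next to active transcription starts. MafA is a basic leucine zipper factor of mature beta cells that activates the insulin genes and binds elements built from the motif TGCTGA.

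The peak lists held 16020 and 16904 peaks in H3K4me3 replicates 1 and 2, and 33013 and 42747 in MafA replicates 1 and 2. Every list came from 1 library, so replicates were not pooled before calling. A peak was assigned to a gene when at least 1 bp of it lay within 1 kb of either gene end, and the peak with the highest fold enrichment gave the gene's values. Fold enrichment, which divides the summit's pileup by a modelled background, and the q-value are the authors' values, and are compared within a list. The median peak had 758 and 263 fragments at its summit in the H3K4me3 lists and 25 and 46 in the MafA lists, as recovered from fold enrichment and p-value. Fragments are counts before a scaling factor of each library, while the modelled background is on the scaled level, so their ratio is not the fold enrichment. As a check of the cell type, 12 of 15 beta cell markers had H3K4me3 in both replicates, against 1 of 8 acinar and duct markers and 1 of 10 fibroblast, endothelial and immune markers. The glucagon gene Gcg, an alpha cell marker, was among the 4 of 8 alpha, delta and PP cell markers with the mark, while the beta cell genes Ins1, G6pc2 and Ucn3 were without it.

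Promoters are shown here for the genes on which the MafA and H3K4me3 results turn. RefSeq promoter sequences of GRCm38.p6 matched 64 of the 84 members, 56 of them canonical, and run from 250 bases before to 50 bases after the annotated start. Capitals mark matches, on either strand, to the MAF motif TGCTGA, the AP-1 site TGACTCA, the ETS site CCGGAAG, the palindrome-forming TCTCGCGA and the TATA motif TATAAA. The set with both MafA summits inside the promoter window consisted of 4 genes, printed 5′ to 3′ from 250 bases before to 20 bases after the start, because these are the letters under the summits.
Rpl10a (chr17:28328221-28328490, plus strand): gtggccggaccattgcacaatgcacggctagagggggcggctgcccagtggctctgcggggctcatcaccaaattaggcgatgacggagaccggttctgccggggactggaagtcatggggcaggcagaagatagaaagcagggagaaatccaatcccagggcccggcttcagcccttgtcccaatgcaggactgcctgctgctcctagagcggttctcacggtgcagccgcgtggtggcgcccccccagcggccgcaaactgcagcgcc
Rps26 (chr10:128626487-128626756, minus strand): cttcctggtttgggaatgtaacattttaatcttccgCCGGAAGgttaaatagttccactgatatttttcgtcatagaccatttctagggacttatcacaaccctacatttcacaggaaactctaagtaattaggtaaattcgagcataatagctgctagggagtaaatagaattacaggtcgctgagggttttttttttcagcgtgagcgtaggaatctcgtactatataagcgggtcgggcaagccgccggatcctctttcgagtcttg
Rpl39 (chrX:37085203-37085472, minus strand): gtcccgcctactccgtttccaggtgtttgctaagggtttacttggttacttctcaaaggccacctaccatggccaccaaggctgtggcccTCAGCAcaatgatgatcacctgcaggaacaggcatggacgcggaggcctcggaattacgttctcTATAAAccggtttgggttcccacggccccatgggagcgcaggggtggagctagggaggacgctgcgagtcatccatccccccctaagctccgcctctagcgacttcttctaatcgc
Rps23 (chr13:90922872-90923141, plus strand): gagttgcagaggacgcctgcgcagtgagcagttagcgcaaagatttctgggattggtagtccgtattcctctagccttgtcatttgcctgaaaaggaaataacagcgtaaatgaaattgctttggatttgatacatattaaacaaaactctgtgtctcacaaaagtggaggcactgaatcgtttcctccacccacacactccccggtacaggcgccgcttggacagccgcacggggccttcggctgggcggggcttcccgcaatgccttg

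The summits in Rpl10a lay at -179 and -153 bp from the start in MafA replicates 1 and 2. They lay at -109 and -81 bp in Rps26, at -203 and -141 bp in Rpl39, and at -108 and -74 bp in Rps23. Of these 4 promoters, that of Rpl39 held a MAF motif, read on the reverse strand at positions -160 to -155. The printed promoter of Rps26 held an ETS match, and those of Rpl10a and Rps23 held none of the 5 motifs.

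For contrast, the 5 members with a promoter sequence and the highest H3K4me3 percentiles among those with no MafA peak are printed from 100 bases before to 20 bases after the start, with capitals as above.
Rps16 (chr7:28350589-28350708, plus strand): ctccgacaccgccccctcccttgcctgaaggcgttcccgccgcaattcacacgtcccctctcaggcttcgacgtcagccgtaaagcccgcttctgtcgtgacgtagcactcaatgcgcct
Rpl31 (chr1:39367751-39367870, plus strand): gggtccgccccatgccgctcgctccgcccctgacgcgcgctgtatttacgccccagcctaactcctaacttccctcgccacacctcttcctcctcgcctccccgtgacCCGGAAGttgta
Rpl11 (chr4:136053374-136053493, minus strand): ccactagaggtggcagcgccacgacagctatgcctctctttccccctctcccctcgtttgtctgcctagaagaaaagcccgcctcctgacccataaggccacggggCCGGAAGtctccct
Rps2 (chr17:24719963-24720082, plus strand): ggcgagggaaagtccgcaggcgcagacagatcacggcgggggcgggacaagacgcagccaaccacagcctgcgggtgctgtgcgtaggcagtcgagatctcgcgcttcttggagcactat
Rpl22 (chr4:152325626-152325745, plus strand): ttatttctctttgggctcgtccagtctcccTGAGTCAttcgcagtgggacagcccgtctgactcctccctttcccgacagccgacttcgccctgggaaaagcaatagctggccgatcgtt

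ETS matches lay just downstream of the start in Rpl31, at positions 9 to 15, and in Rpl11, at positions 7 to 13. Rpl22 held an AP-1 match at -70 to -64. Rps16 and Rps2 held no match in the printed stretch.

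H3K4me3 marked nearly every ribosomal protein gene. A peak was present in both replicates at 79 of 84 members (94%, 95% Wilson interval 86.8 to 97.4), where 55.6% of all protein-coding genes had one. All 76 canonical members were marked, as were 3 of the 8 copies. Intervals on shares cover counting error only.

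The 5 members without the mark were all copies. Rpl10l and Rpl39l are relatives of Rpl10 and Rpl39 known from testis, and Rpl32l, Rpl37rt and Rps27rt are copies of Rpl32, Rpl37 and Rps27. None of the 5 had a peak in any of the 4 lists. Of the marked copies, Rpl36al had fold enrichments of 25.9 and 21.6 in H3K4me3 replicates 1 and 2. Rps27l, a relative of Rps27 known to respond to p53, had 16.0 and 13.5. Rpl3l, a relative of Rpl3 that is known from striated muscle, had 12.4 and 17.2, the lowest of the 3 in replicate 1. The Rpl3l peak lay at the far end of the gene and covered 0.878% and 1.97% of it. Its summits were 4076 and 4113 bp downstream of the nearest annotated start, so it is not a peak at that start. An end of Msrb1 lay in the same window. The window of Rpl36al also held an end of Mgat2, so its peak cannot be told apart from that of this neighbour.

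Annotated ribosomal protein pseudogenes rarely carried the mark. Of 298 of them, 3 (1.01%) had H3K4me3 in both replicates, beside 1.52% of 9657 other pseudogenes. MafA peaks in both replicates were near 7 of the 298 (2.35%) and near 1.78% of the others. How reads of near-identical copies were aligned is not given in the sources used here.

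The strength of H3K4me3 varied among marked members. Fold enrichment ran from 9.6 to 42.5 (median 19.4) in replicate 1 and from 9.72 to 38.7 (median 19.0) in replicate 2. The median member stood at percentile 66.3 and 75 of all peaks of its list, a mean of 70.7 ± 6.15 (SD, n = 2 libraries), where the median protein-coding gene with a peak stood at 63.6 and 65.3. By fragments at the summit, the members' median percentiles were 81.4 and 84.5, beside 64.6 and 66.4 for all genes with a peak. No marked member was below the 25th percentile by fold enrichment in either list. Spearman's rho of the percentile between the 2 replicates was 0.81 over the 79 genes, as a description of genes that share the same libraries.

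Rpl8, a large subunit protein, had the highest values, with fold enrichments of 42.5 and 38.7. By mean over the replicates it was followed by Rps16, with 37.0 and 26.5, and by Rpsa, the small subunit protein first described as a laminin receptor precursor, with 35.1 and 27.5. In replicate 2 alone, Rpl7 (29.9), Rps12 (29.2) and Rpl31 (27.6) stood above both. At the lower end stood Rpl30, with 9.6 and 11, and Rps9, with 9.93 and 9.72. The value was higher in replicate 1 at 62 of the 79 genes, and the ranges of the 2 replicates overlapped almost wholly. Rps6, the S6 kinase substrate, had 19.3 and 16.6. The ubiquitin fusion gene Rps27a had 13.8 and 15.2.

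The stalk proteins Rplp0, Rplp1 and Rplp2 form the arm of the large subunit that recruits elongation factors. Rplp0 had H3K4me3 fold enrichments of 25.6 and 23.1, Rplp1 of 22.5 and 20.4, and Rplp2 of 17.3 and 15.1. None of the 3 had a MafA peak in either replicate. Rpl5 and Rpl11, large subunit proteins that bind Mdm2 when ribosome assembly fails, had 17.4 and 17.3, and 28.7 and 24.3. Both were also without MafA peaks. Rpl4, Rpl5, Rpl8, Rpl11, Rpl31, Rpl22, Rps2, Rps12 and Rps16 are named for their values or sequences, which were seen before the choice.

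**Figure D1:**
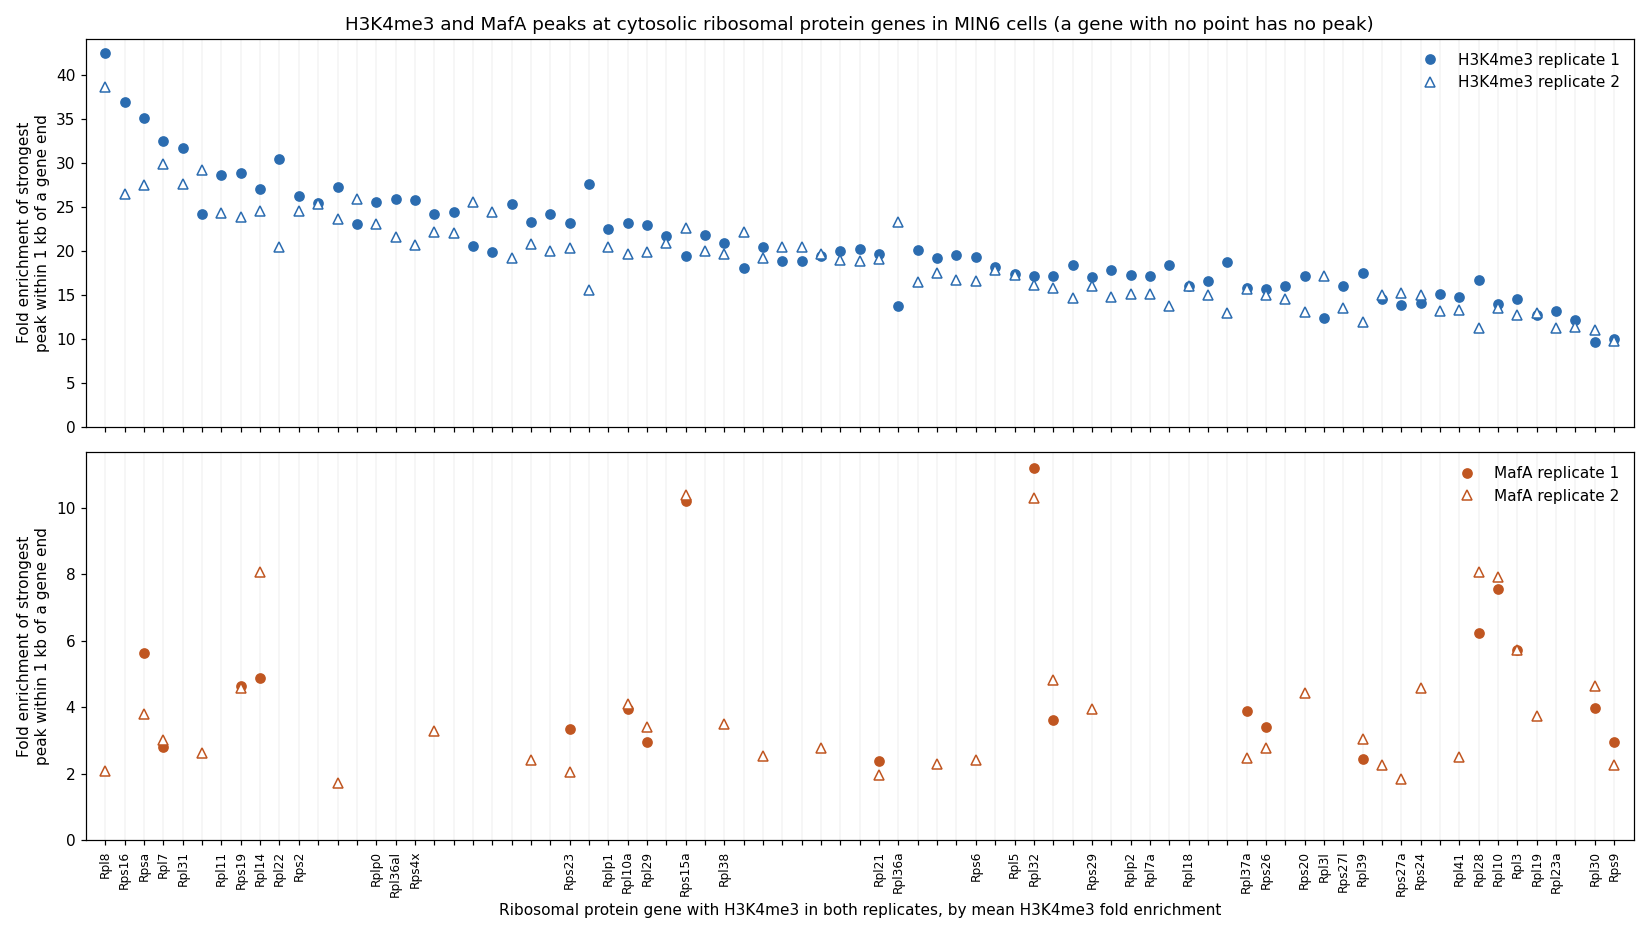
Fold enrichment (linear, vertical axis) of the strongest H3K4me3 peak (top) and MafA peak (bottom) within 1 kb of a gene end, for the 79 ribosomal protein genes with H3K4me3 in both replicates, ordered by mean H3K4me3 fold enrichment, with names under some of them. Filled circles are replicate 1 and open triangles replicate 2. H3K4me3 points run from 9.6 to 42.5, and MafA points are present for 19 genes in replicate 1 and 36 in replicate 2, scattered along the whole order.

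H3K4me3 peaks at ribosomal protein genes were broad relative to the genes. Median width was 2348 and 2413 bp, beside 2062 and 2073 bp for all genes with a peak and 1861 and 1961 bp for mitochondrial ribosomal protein genes. The median member gene was 3169 bp long, against 17146 bp for all protein-coding genes, so that a median of 48.5% and 49.4% of the gene was covered by H3K4me3. The widest peaks were at Rpl7 (3828 and 3718 bp), Rpl7a (3544 and 3651 bp), Rpl3 (3341 and 3541 bp), Rpl10 (3154 and 3330 bp) and Rpl41 (3089 and 3217 bp). The narrowest were at Rps29 (1200 and 1173 bp), Rps23 (1394 and 1059 bp), Rplp0 (1342 and 1430 bp), Rpl18 (1637 and 1680 bp) and Rpl23a (1737 and 1741 bp). In these 10 genes the 2 replicates differed by less than the gap between the widest and the narrowest. Rps29 and Rplp0 had 2 H3K4me3 peaks each in both replicates, and the width given is that of the peak with the higher fold enrichment.

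Some windows held more than 1 gene. In both replicates 1 pair of members shared a single H3K4me3 peak, so that their values are not separate measurements. An end of another protein-coding gene lay in the windows of 31 members. These include Rpl7a with Med22 and Surf1, and Rpl41 with Zc3h10.

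The 4 marked members on the X chromosome, Rpl10, Rpl39, Rpl36a and Rps4x, had fewer H3K4me3 fragments by median than those on autosomes. In replicate 1 they had 401 to 769 fragments at the summit (median 652), beside 644 to 2854 (median 1724) for the 75 autosomal members. In replicate 2 they had 175 to 269 (median 218), beside 220 to 1005 (median 619). The same held over all marked genes, with medians of 470 on the X chromosome and 1170 on autosomes in replicate 1, and of 180 and 430 in replicate 2. The modelled background, which unlike the fragments is scaled, moved with it, at medians of 13.5 and 12.0 for X-linked members against 33.0 and 31.0. Median fold enrichment was 15.7 and 17.1 against 19.4 and 19.0. Rps4x had fold enrichments of 25.8 and 20.7, and Rpl36a of 13.7 and 23.3, the latter with a wide gap between replicates. The ranges of fragments overlapped between X-linked and autosomal members in both replicates.

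MafA peaks were found at fewer ribosomal protein genes than H3K4me3 peaks were. A peak was present in both replicates at 19 of 84 members (22.6%, 95% Wilson interval 15.0 to 32.6), and 20.2% of all protein-coding genes had one. Of the 4429 protein-coding genes with MafA in both replicates, 4175 had H3K4me3, so marked genes are the closer background. Of the 79 marked members 19 had MafA in both replicates (24.1%, 16.0 to 34.5), where 34.3% of all marked genes did, a value inside the members' interval. In replicate 1 alone the count was also 19 of 79 (24.1%, 16.0 to 34.5), beside 36.4% of marked genes, which is above the members' interval. In replicate 2 alone it was 36 of 79 (45.6%, 35.0 to 56.5), beside 56.4%, inside the interval. Leaving out MafA replicate 1 therefore moves the count of members with MafA from 19 to 36. The intervals cover the counting of genes that share their libraries, not the spread between libraries, and are not a test.

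The MafA peaks of the 2 replicates fell at the same places. All 19 pairs of replicate peaks overlapped, and 16 had summits within 100 bp of each other. No member had a peak in replicate 1 only, 17 had one in replicate 2 only, and 48 had none. By class, MafA was present in both replicates at 12 of 43 large subunit genes, 7 of 30 small subunit genes, 0 of 3 stalk genes and 0 of 8 copies.

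**Figure D2:**
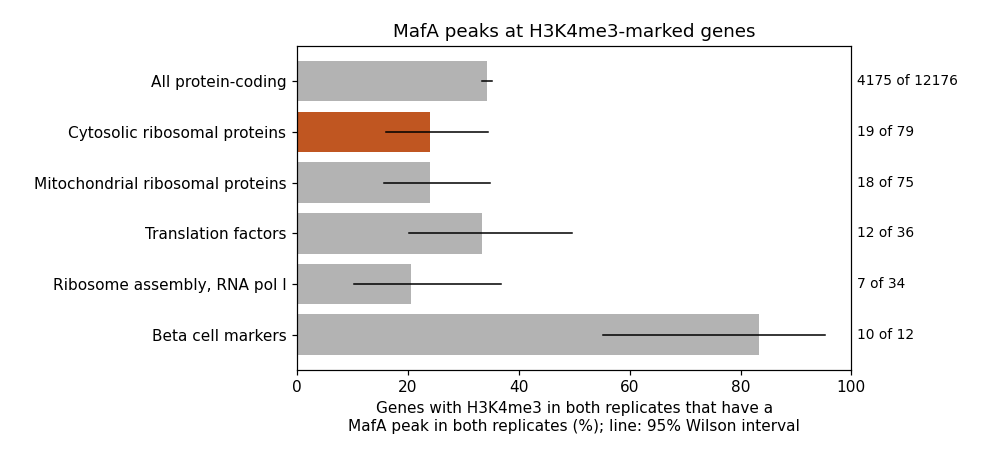
Share (percent, horizontal axis) of genes with H3K4me3 in both replicates that also have a MafA peak in both, for all protein-coding genes, cytosolic ribosomal protein genes (orange) and 4 lists. Lines are 95% Wilson intervals, and counts stand at the right. The cytosolic ribosomal protein genes stand at 19 of 79 and the beta cell markers at 10 of 12.

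Other genes of the protein synthesis machinery were counted the same way. Of 78 mitochondrial ribosomal protein genes 75 had H3K4me3, and 18 of these 75 (24%) had MafA in both replicates. Translation factors had H3K4me3 at 36 of 36 genes and MafA at 12 (33.3%). Of 35 genes for ribosome assembly and RNA polymerase I, 34 were marked and 7 of these (20.6%) had MafA. Among the genes of ribosomal stress and translation control, such as Mdm2, Mtor and Larp1, 10 of 11 were marked and 5 of these 10 had MafA. The unmarked gene was Larp1, which had MafA in both replicates. Mdm2 had both, and Mtor was marked without a MafA peak. Beta cell markers, measured the same way, had MafA at 12 of 15 genes and at 10 of the 12 marked ones.

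The MafA peaks at ribosomal protein genes had low fold enrichment for their list. The members' median percentile was 25.4 in replicate 1 (n = 19 genes) and 14.6 in replicate 2 (n = 36), a mean of 20 ± 7.64 (SD, n = 2 libraries). The median over all genes with a MafA peak was 27.5 and 25.6, close to that of the members in replicate 1 and above it in replicate 2. That of the beta cell markers was 84.5 and 83.3. At Ins2, an insulin gene, MafA fold enrichment was 14.9 and 20.8, above every ribosomal protein gene in both replicates. This did not hold for all beta cell markers. The other insulin gene, Ins1, had 8.94 and 10.8, below Rpl32 and Rps15a in replicate 1 and above both in replicate 2. Neurod1 had 2.74 and 3.68.

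Ranked by fragments at the summit, the same peaks stood high. Their median percentile was 85.9 and 81.3, beside 81.7 and 81.1 for all genes with a MafA peak. All 19 members with MafA in both replicates were above the 50th percentile by fragments in both lists, and 5 of the 19 were by fold enrichment. The modelled background at these peaks was also high, with median percentiles of 92.6 and 92.3 within the lists, beside 90.8 and 89.6 for all genes with a peak. The source of this background was not tested.

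**Figure D3:**
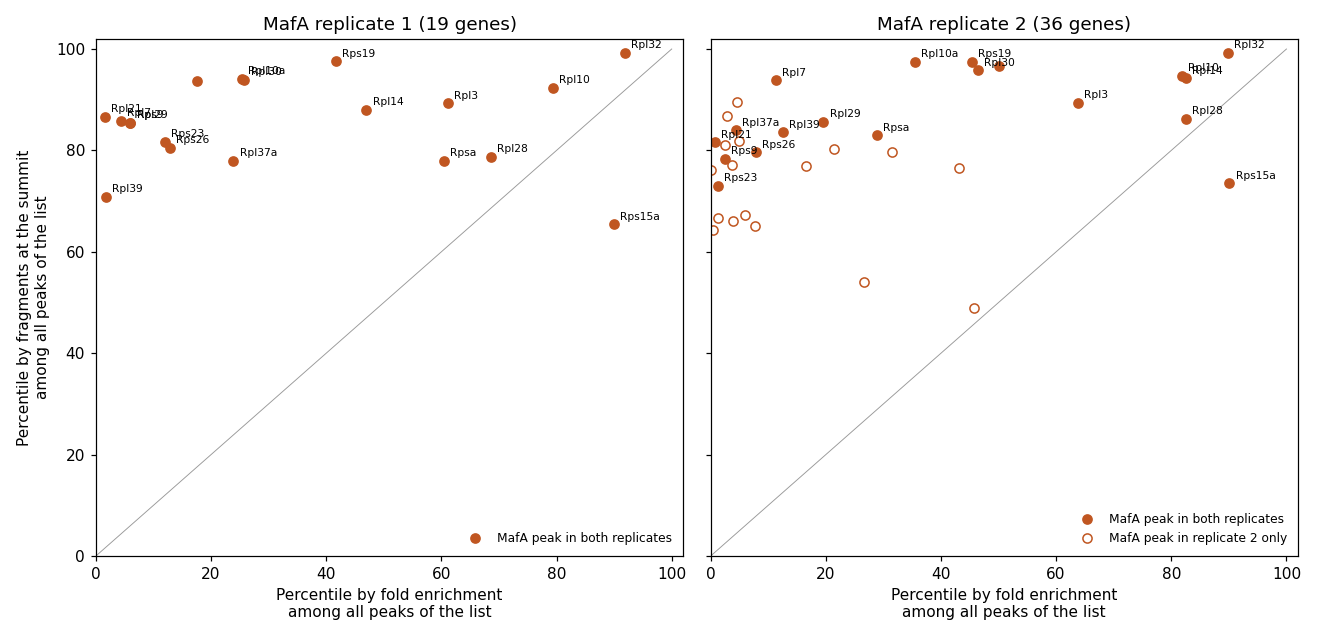
Percentile of the strongest MafA peak of each ribosomal protein gene among all peaks of its list, by fold enrichment (horizontal axis) and by fragments at the summit (vertical axis), for replicate 1 (left, 19 genes) and replicate 2 (right, 36 genes). Filled points are genes with MafA in both replicates and open points genes with a peak in replicate 2 only, some genes are named, and the grey line marks equal percentiles. Nearly all points lie above the line, and Rpl32 is high on both axes while Rps15a is higher by fold enrichment than by fragments.

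Rpl32, a large subunit protein gene at chr6:115805514-115808743, had the highest mean MafA percentile over the 2 replicates, and in replicate 2 stood just below Rps15a (89.9 against 90.1). Its fold enrichments were 11.2 and 10.3 in MafA replicates 1 and 2, from 207 and 413 fragments. The summits, at chr6:115808915 and chr6:115808890, lay 172 and 147 bp outside the nearer end of the gene and in no annotated gene. No annotated start was matched for Rpl32, so whether its start lies at this end was not determined here. An end of Cand2 lay in the same window. H3K4me3 at Rpl32 was 17.2 and 16.1, below the members' medians of 19.4 and 19.0.

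Rps15a, a small subunit protein gene at chr7:118104374-118116147, had fold enrichments of 10.2 and 10.4 but from 34 and 82 fragments. Its MafA summits lay inside the gene near its far end, 11122 and 11183 bp downstream of the annotated start. It was the 1 member of the 19 whose MafA summits lay outside an H3K4me3 peak. Modelled background there was 2.43 and 5, against medians of 15.4 and 26 over the members. Rps15a thus had high fold enrichment and a modest number of fragments.

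Rpl10, an X-linked gene whose protein completes the large subunit late in assembly, had fold enrichments of 7.55 and 7.91 (86 and 200 fragments), with summits at -314 and -341 bp. An end of Dnase1l1 shared its window. Rpl28 had 6.24 and 8.07, with summits past the end of its short gene, 1926 and 1930 bp from the start. Rpl14 had 4.88 and 8.06, with summits at -271 and -324 bp. Rpl14 moved most between the replicates of these 3, from percentile 47 to percentile 82.5 by fold enrichment.

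Rpl3, a protein of the peptidyl transferase region, had fold enrichments of 5.72 and 5.71, with summits 266 and 286 bp outside the gene. Rpsa had 5.62 and 3.81, with summits on opposite sides of the start, at -337 and 187 bp. Rps19, the gene most often mutated in Diamond-Blackfan anaemia, had 4.63 and 4.57 from 140 and 274 fragments, at -274 and -279 bp. By fragments Rps19 stood at percentiles 97.6 and 97.5, below Rpl32 at 99.2 in both. Rpl30 had 3.97 and 4.63.

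At the lower end of fold enrichment, Rpl21 had 2.39 and 1.95 and Rps9 had 2.95 and 2.25. Rps23, of the decoding region, had 3.35 and 2.05, Rpl39, of the exit tunnel, 2.43 and 3.05, and Rpl7 2.81 and 3.01. Rpl21 nonetheless had 65 and 106 fragments at its summits, with modelled backgrounds of 26.7 and 40. In replicate 2 the background is scaled by 0.746 relative to the fragments, so their ratio there is not the fold enrichment. The order of genes was similar in both lists, with a Spearman's rho of 0.86 over the 19 genes, as a description.

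The 17 members with MafA in replicate 2 only had fold enrichments from 1.73 to 4.58 there. Their median was 2.53, from 90 fragments, where the 19 members with both peaks had a median of 4.11 from 125 fragments in the same list. The strongest were Rps24 (4.58, 45 fragments), Rps20 (4.44, 90 fragments), Rps29 (3.94, 99 fragments), Rpl19 (3.74, 50 fragments) and Rpl38 (3.49, 101 fragments). Rps6 (2.40) and Rps27a (1.84) were also among the 17. The ranges of both sets overlapped.

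H3K4me3 was also compared between members with and without MafA. The 19 members with MafA in both replicates had median H3K4me3 percentiles of 59.3 and 62.0, and the 43 marked members with no MafA peak 68.6 and 75.8. Median widths were 2433 and 2476 bp with MafA and 2286 and 2413 bp without. These are descriptions over genes, with no test, since the genes share their libraries.

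Summit positions were read relative to the annotated start. H3K4me3 summits lay downstream of the annotated start at 55 of the 59 marked members with a start (93.2%) in each replicate, at medians of 292 and 301 bp (quartiles 178 to 352 and 175 to 364). Among other marked genes, 82.2% and 81.9% were downstream, at medians of 203 and 201 bp. Over all members with a start, MafA summits lay downstream at 3 of 12 in replicate 1 and at 10 of 24 in replicate 2, at median positions of -188 and -92 bp. These include summits near the far end of the gene. MafA summits within 1 kb of the start lay upstream at 9 of 10 members (90%) in replicate 1 and at 14 of 18 (77.8%) in replicate 2, where 51.8% and 46.3% of other marked genes had them upstream. Within that distance, median positions were -200 and -184 bp at members, and -86 and 61 bp at other marked genes. The counts of members are small, and no test over libraries bears on them.

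**Figure D4:**
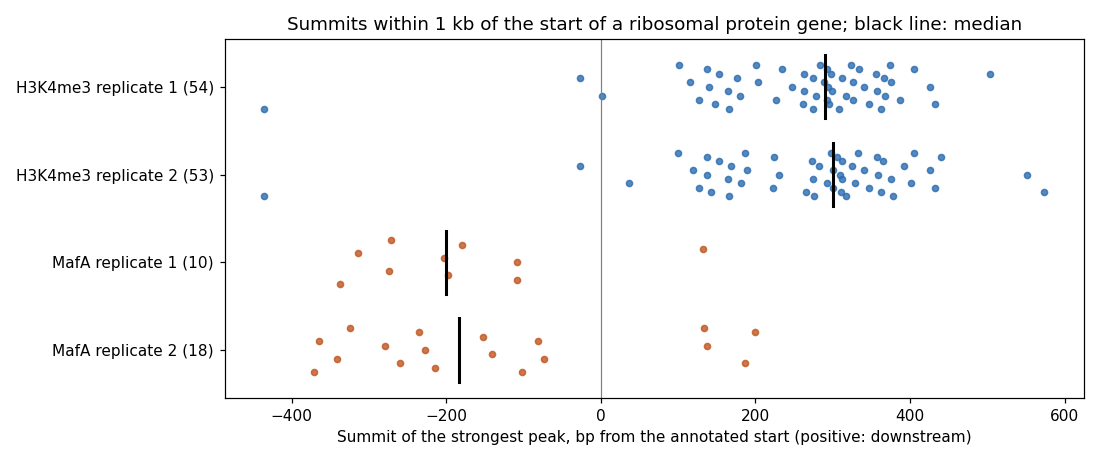
Position of the summit of the strongest peak relative to the annotated start (bp, horizontal axis, positive downstream) for members with a start and a summit within 1 kb of it. Each point is a gene, rows are libraries with the number of genes in parentheses, and black lines are medians. H3K4me3 medians stand at 291 and 300 bp over these genes, and MafA medians at -200 and -184 bp.

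Both MafA summits lay inside an H3K4me3 peak at 18 of the 19 members, all but Rps15a. Over these 18 members, without Rps15a, the median gap between the MafA and the H3K4me3 summit of a gene was 532 bp in replicate 1 and 460 bp in replicate 2. At 13 of the 19 genes both MafA summits were outside annotated genes, at 4 (Rpl21, Rpl29, Rps9 and Rps15a) both were inside the gene, and at Rpl37a and Rpsa the replicates differed.

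Over the 4 libraries, MafA peaks at members were fewer and narrower than H3K4me3 peaks. The share of members with a peak was 22.6% and 42.9% in the MafA libraries (32.7 ± 14.3, SD, n = 2) and 94% in both H3K4me3 libraries (94 ± 0). The difference was -61.3 percentage points (exact permutation test, two-sided, p = 0.333). Median peak width was 583 and 598 bp (591 ± 11) for MafA and 2348 and 2413 bp (2380.5 ± 46) for H3K4me3, a difference of -1789.8 bp (exact permutation test, two-sided, p = 0.333). The libraries of the 2 groups did not overlap in either measure, but 0.333 is the smallest p that 2 against 2 libraries allow. Unsigned distance of the summit from the start, or from the nearer gene end where no start was given, was 266 and 268 bp for MafA and 308 and 312 bp for H3K4me3 (difference -43 bp, exact permutation test, p = 0.333). Among members with a peak in all 4 lists that difference was 0.

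The promoter sequences of the 56 canonical members were searched for motifs and set beside other promoters. TCTCGCGA was present in 9 (16.1%), beside 1.51% of 17492 promoters of the same length and 2.32% of the 9792 at marked genes. The ETS motif CCGGAAG was present in 22 (39.3%), beside 11.9% of all and 18.4% of marked promoters. Both strands were searched, and a longer palindrome can hold TCTCGCGA on each strand. These shares are descriptions, and a match is not a binding site.

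The MAF motif TGCTGA was present in 5 of the 56 promoters (8.93%), beside 17.9% of all and 14% of marked promoters. The longer form TGCTGAC, which contains it, was in 0 of 56, beside 4.26% and 3.21%, and pairs of facing motifs 1 or 2 bases apart were in none of the 56 and in 1 of the 17492. Of the 12 members with MafA in both replicates and a promoter sequence, 1, Rpl39, held the motif. That these letters are absent says nothing of sequence outside the window. The AP-1 motif TGACTCA was in 2 (3.57%), beside 4.58% and 2.92%. The YY1 motif AAGATGGC was in 4 (7.14%), beside 3.22% and 4.71%.

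Of the remaining motifs, the SP motif GGGCGG was in 33 (58.9%), beside 46.3% of all and 67.6% of marked promoters. CCAAT was in 18 (32.1%), beside 39% and 38.9%. TATAAA was in 5 (8.93%), beside 13.3% and 6.31%, the E-box CACGTG in 5 (8.93%), beside 7.9% and 10.3%, and the NRF1 motif GCGCATGC in 2 (3.57%), beside 3.61% and 5.68%. None of these 5 shares was above those of both all and marked promoters.

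The start was searched for the pyrimidine tract for which this gene family is known. A run of at least 8 C or T bases reaching within 5 bases of the start was present in 19 of the 56 (33.9%), beside 9.26% of all and 9.5% of marked promoters, and the longest was 21 bases. The start itself was a C in 19 of 56 (33.9%), beside 13.7% and 14.8%. Median GC content was 57.5%, beside 56.3% of all and 61.7% of marked promoters.

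The 9 members with TCTCGCGA are shown around the match, which is in capitals on either strand, since this was the motif with the largest ratio to other promoters among the single motifs searched. The set was chosen after its values were seen.
Rpl7a (chr2:26910735-26910782, plus strand): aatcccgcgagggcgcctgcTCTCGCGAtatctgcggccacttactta
Rpl12 (chr2:32961638-32961687, plus strand): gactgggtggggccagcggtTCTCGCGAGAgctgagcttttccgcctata
Rpl35 (chr2:39005293-39005340, minus strand): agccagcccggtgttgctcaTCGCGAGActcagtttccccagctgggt
Rps6 (chr4:86857389-86857438, minus strand): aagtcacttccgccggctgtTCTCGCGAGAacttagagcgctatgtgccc
Rps19 (chr7:24884545-24884611, plus strand): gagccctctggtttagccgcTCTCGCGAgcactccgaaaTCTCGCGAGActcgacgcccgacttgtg
Rpl27a (chr7:109519154-109519201, plus strand): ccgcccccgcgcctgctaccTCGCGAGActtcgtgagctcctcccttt
Rps15a (chr7:118116186-118116233, minus strand): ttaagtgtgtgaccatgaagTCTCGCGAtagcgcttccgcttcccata
Rpl26 (chr11:68901520-68901569, plus strand): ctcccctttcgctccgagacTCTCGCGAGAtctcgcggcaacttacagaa
Rps28 (chr17:33824543-33824583, minus strand): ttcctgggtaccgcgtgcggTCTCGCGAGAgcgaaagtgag

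The match began at a position from -66 to -1 in 8 of the 9, and at -189 in Rpl35. Rps19 held 3 matches, and Rpl12, Rps6, Rpl26 and Rps28 held 2 each, on opposite strands of the same palindrome. Of the 9, Rps19 and Rps15a had MafA peaks in both replicates and Rps6 in replicate 2. The MafA summits of Rps19 lay upstream of the window shown, and those of Rps15a at the other end of the gene.

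Small nucleolar RNA genes, which guide modification of ribosomal RNA, lie inside many of these genes. Of the members, 29 held 58 annotated snoRNA genes, with at most 5 in a gene (Rpl4). MafA was present in both replicates at 7 of the 29 hosts, beside 19 of all 84 members.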

How the data were processed

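Narrow peak lists of 4 CUT&RUN libraries of MIN6 cells were used as deposited by the authors, who called them with MACS2 against GRCm38 (mm10), per the submitters' processing notes. The MACS2 version, aligner, duplicate handling and control library are not given in the sources used here. In the deposited lists, fold enrichment is a linear ratio to the modelled background, and significance is −log10 of p and q at the summit. The deposited score was not used. Read totals are unknown.

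Gene positions came from RefSeq GRCm38.p6. Members and lists were chosen with earlier results of these data known. Groups came from the sample titles. Peaks were ranked within each list. Whole fragments at summits were solved from fold enrichment and p, assuming a pseudocount of 1 and a Poisson p, for at least 99.9% of peaks in each list. Fragments times a scaling factor gave the pileup. The factor was 0.415 and 0.997 in H3K4me3 replicates 1 and 2, and 1 and 0.746 in MafA replicates 1 and 2. On 3000 simulated peaks for each of 4 factors, at least 99.8% of values were right. The simulated peaks were made with the same pseudocount and Poisson p, so they cannot check these assumptions. They also did not span the whole range of fold enrichment in the lists. Library values were compared by exact permutation tests, and shares have 95% Wilson intervals. Tests ran in scipy 1.17.1, tables in pandas 2.3.3 and numpy 2.4.6, and plots in matplotlib 3.10.9, all under Python 3.11.15.

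Named genes were the members without H3K4me3, the 10 highest and 5 lowest by mean MafA percentile, the 5 strongest with MafA in 1 replicate, the 5 widest and 5 narrowest H3K4me3 peaks, the stalk genes, Rpsa, Rps6, Rpl10, Rps4x, Rps27a and the tissue-limited copies. Some genes that the rule or a list would name are not reported here. The labels do not say whether equal replicate numbers pair libraries of different antibodies. Over 4175 genes with a peak in every list, replicate deviations of log2 fold enrichment correlated at -0.02 between H3K4me3 and MafA. This value cannot decide the question, since libraries of the same culture need not deviate at the same genes.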

Additional observations from a re-analysis of the deposited data

How the results depend on the processing

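With 2 libraries a group, no permutation test could pass a threshold, and depth is known only as fragments at summits. Other settings were stricter peaks, equal numbers of peaks, other windows, other member sets, other ranks and leaving out each library. The count of members with H3K4me3 in both replicates was 49 among the 53 members with no other gene's end in their windows, a smaller set. It was 58 of the 64 members with a start when the annotated start alone was used, and 73 to 83 under the rest. The count with MafA in both was 10 of 64 when the annotated start alone was used, and ran from 19 to 36 when a replicate was left out, the higher value without MafA replicate 1. The share of marked members with MafA ran from 24.1 to 45.6% when a replicate was left out, and from 16.5 to 30.6% under the rest. With equal numbers of peaks it was 16.5%, beside 20.4% of marked genes, and with a −log10 q of at least 5 it was 21.5%, beside 30.1%.

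The mean percentile of MafA peaks at members moved from 20 by fold enrichment to 67.8 by −log10 q, 83.6 by fragments and 48.8 by width. That of H3K4me3 peaks moved from 70.7 to 80.4 by −log10 q and 82.9 by fragments. The difference in summit distance was 0 bp (exact permutation p = 1) among members with a peak in all 4 lists. The cause of these changes was not tested. With the replicate number as a replicate block, the differences were -61.3 points, -1789.8 bp and -43 bp, each with an exact permutation p of 0.5, the smallest it allows. The number is a label and not a known pairing. Adding 4 relatives whose symbols end in a digit after letters (Rpl7l1, Rpl22l1, Rps3a1 and Rps23rg1), chosen after seeing the data, gave 82 of 88 with H3K4me3 and 20 with MafA.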
